A study of Mus musculus with 4 samples.

Results

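The amino acid transporters described here are the genes of 6 solute carrier families, Slc1a, Slc3a, Slc7a, Slc36a, Slc38a and Slc43a, measured as messenger RNA in mouse liver. They were taken by symbol from the 22155 symbols of the count table: 43 symbols matched the naming pattern of these families, 1 of them was left out, and 42 remained. Slc38a and Slc7a were the largest families, with 11 and 15 symbols, followed by Slc1a with 7, Slc36a with 4, Slc43a with 3 and Slc3a with 2. One of the 42, Slc7a6os, is a neighbouring gene read from the opposite strand of Slc7a6 and is no carrier, which leaves 41 transporters. Of the 42, 28 had enough counts to be tested and 14 did not.

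The livers came from wild type C57BL/6 mice aged 8 to 10 weeks. The gavage group had 2 libraries, from mice fed the Lieber-DeCarli liquid diet with 5% ethanol for 10 days, then given 5 g of ethanol per kg of body weight as a binge and killed 9 hours later. The ethanol alone group had 2 libraries, from mice on ethanol feeding without the binge, so both groups carried the chronic ethanol exposure and no library came from a mouse without ethanol. Neither the sex of the mice, nor a control gavage, nor the hour of death in the ethanol alone group is stated in the labels used here, so the binge itself, the handling and the time of day cannot be told apart. Whether libraries 1 and 2 of a group are from different mice is not stated either, so a p-value here reflects only library-to-library spread, which may be technical.

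Cells cannot make all amino acids, and the charged and polar ones do not cross membranes unaided, so carriers set what enters and leaves the hepatocyte. Sodium-coupled carriers accumulate amino acids against a gradient, exchangers of the Slc7a family trade one amino acid for another and mostly need a heavy chain of the Slc3a family to reach the surface, and proton-coupled carriers of the Slc36a family work largely at lysosomes. In liver these proteins bring in alanine for glucose synthesis, glutamine and arginine for nitrogen disposal, and cationic amino acids, and several of their genes are textbook targets of the amino acid starvation pathway through the kinase GCN2 and the transcription factor ATF4.

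Totals ranged from 29914491 to 30039731 counts in the gavage libraries and from 28791281 to 30347558 in the ethanol alone libraries. Levels are given as CPM, the count of a gene relative to the composition-scaled total of its library, or as RPKM, which is CPM per kilobase of exon, where genes are compared with each other. Values always stand in the order replicate 1, replicate 2 within a group. The hepatocyte markers dominated all libraries, Alb standing at 83277 and 99816 CPM in the gavage libraries and at 110898 and 100866 CPM in the ethanol alone libraries. Both libraries numbered 1 also held RNA of other tissues. The summed level of 4 skeletal muscle markers was 449 and 0.963 CPM in the gavage libraries and 211 and 7.1 CPM in the ethanol alone libraries, and that of 6 adipocyte markers was 98.3 and 12.2 CPM in the gavage libraries and 61.1 and 7.96 CPM in the ethanol alone libraries. All 4 muscle and all 6 adipocyte markers were higher in both libraries numbered 1. Pancreatic acinar markers, 5 in all, summed to 4.46 and 5.45 CPM in the gavage libraries and to 832 and 8.23 CPM in the ethanol alone libraries, so 1 ethanol alone library stood apart. These are bulk tissue values, in which fewer cells of a type and less RNA per cell cannot be told apart.

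The test across all genes (edgeR's quasi-likelihood test, with p-values adjusted by Benjamini-Hochberg over 13309 genes) called 0 genes at an adjusted p under 0.05, a background of 0%, and no transporter was called. The smallest adjusted p among the 28 tested members was 0.134. Without adjustment, 2497 of the 13309 genes had a p under 0.05, which is 18.8%, with 8.91% higher and 9.85% lower after gavage. Among the members 5 of 28 had such a p, 17.9%, of which 3 were higher and 2 lower, so the share stood near the background and is no result about the family. The 5 were Slc36a4, Slc3a2 and Slc7a1 on the higher side and Slc38a4 and Slc38a2 on the lower side. DESeq2, run on the same counts as an alternative, called 3.94% of genes higher and 4.9% lower, and among the members it called Slc36a4 and Slc3a2 higher and Slc38a4 lower. The exact permutation test of 2 libraries against 2 cannot go below a two-sided p of 0.333, so no single gene could be tested that way.

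The promoters of these 5 genes are shown because they are the members with the smallest p-values, and they let a reader see which short factor motifs lie at the start of each gene. Each window runs from 250 bases before to 50 bases after the RefSeq start on build GRCm38.p6, 5′ to 3′ on the gene's own strand. Capitals mark matches, on either strand, to any of 7 motifs: the CEBP-ATF composite element TGATGCAA through which ATF4 acts, the cyclic AMP response element TGACGTCA, the AP-1 element TGACTCA, the E-box CACGTG, the GC box GGGCGG, the CCAAT box CCAAT and the TATA box TATAAA. The windows lie at chr9:15709488-15709787 on the plus strand for Slc36a4, and on the minus strand at chr19:8713848-8714147 for Slc3a2, chr5:148399855-148400154 for Slc7a1, chr15:97055907-97056206 for Slc38a4 and chr15:96699679-96699978 for Slc38a2. RefSeq lists 2 windows for Slc7a1 and 3 for Slc38a4, of which the first is shown.
Slc36a4: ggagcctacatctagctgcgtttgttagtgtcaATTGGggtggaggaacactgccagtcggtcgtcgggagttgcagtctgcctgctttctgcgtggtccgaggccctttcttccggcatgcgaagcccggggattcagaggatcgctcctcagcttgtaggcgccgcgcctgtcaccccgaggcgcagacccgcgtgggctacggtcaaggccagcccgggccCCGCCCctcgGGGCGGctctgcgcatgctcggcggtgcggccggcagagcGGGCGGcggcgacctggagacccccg
Slc3a2: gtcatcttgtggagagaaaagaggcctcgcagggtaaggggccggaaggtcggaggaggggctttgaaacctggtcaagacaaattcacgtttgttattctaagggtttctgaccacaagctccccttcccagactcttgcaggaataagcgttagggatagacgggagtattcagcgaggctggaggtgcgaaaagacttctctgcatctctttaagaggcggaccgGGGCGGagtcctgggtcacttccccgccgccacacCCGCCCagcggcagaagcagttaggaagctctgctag
Slc7a1: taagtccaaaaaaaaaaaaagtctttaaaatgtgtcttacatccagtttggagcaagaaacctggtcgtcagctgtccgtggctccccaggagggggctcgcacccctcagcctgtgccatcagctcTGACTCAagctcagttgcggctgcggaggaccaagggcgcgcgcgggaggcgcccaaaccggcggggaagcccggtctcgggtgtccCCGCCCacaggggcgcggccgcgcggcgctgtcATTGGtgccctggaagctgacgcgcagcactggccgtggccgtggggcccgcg
Slc38a4: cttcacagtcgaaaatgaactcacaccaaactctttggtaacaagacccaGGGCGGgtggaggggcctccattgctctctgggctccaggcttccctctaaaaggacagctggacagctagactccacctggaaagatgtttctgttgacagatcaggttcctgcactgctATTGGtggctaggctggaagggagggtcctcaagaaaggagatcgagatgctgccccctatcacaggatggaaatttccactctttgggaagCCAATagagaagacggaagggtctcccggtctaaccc
Slc38a2: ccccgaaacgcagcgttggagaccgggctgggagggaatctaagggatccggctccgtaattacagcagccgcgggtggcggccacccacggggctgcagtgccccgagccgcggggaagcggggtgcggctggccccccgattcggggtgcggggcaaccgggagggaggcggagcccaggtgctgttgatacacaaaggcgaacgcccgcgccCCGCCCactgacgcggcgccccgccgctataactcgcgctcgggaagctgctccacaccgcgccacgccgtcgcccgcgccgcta

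All 5 windows held at least 1 GC box: 3 in Slc36a4, 2 in Slc3a2 and 1 each in Slc7a1, Slc38a4 and Slc38a2. The GC box is common, however. It was present in 15 of the 20 tested members with a window, 75%, in 62.5% of the windows of tested genes and in 35.9% of all promoters of the same length. The CCAAT box lay in the windows of Slc36a4, Slc7a1 and Slc38a4, in 40% of the members' windows, in 38.5% of those of tested genes and in 37.9% of all promoters. Slc7a1 also held an AP-1 element at positions -123 to -117 from the start. AP-1 elements were found in 10% of the members' windows, in Slc3a1 and Slc7a1, in 3.82% of those of tested genes and in 5.17% of all promoters. The TATA box was in 15% of the members' windows (Slc1a3, Slc3a1 and Slc43a1), 7.59% of those of tested genes and 14.2% of all promoters, the E-box in 15%, 9.95% and 7.24%, and the cyclic AMP element in 5% (Slc38a6), 3.13% and 1.88%.

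The letters of the CEBP-ATF composite element were in none of the 5 windows. They were found in 2 members, Slc1a4 and Slc7a7, 10% of the windows, against 0.678% of the windows of tested genes and 0.929% of all promoters. In Slc1a4 the element spans positions -4 to 3, and the stretch around it is shown because it holds the element that ATF4 is known to bind. It was taken from the window at chr11:20332664-20332963 on the minus strand.
Slc1a4: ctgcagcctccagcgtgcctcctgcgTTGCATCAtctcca

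A motif match is a description of letters, and its absence from a window says only that these letters are not there.

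**Figure D1:**
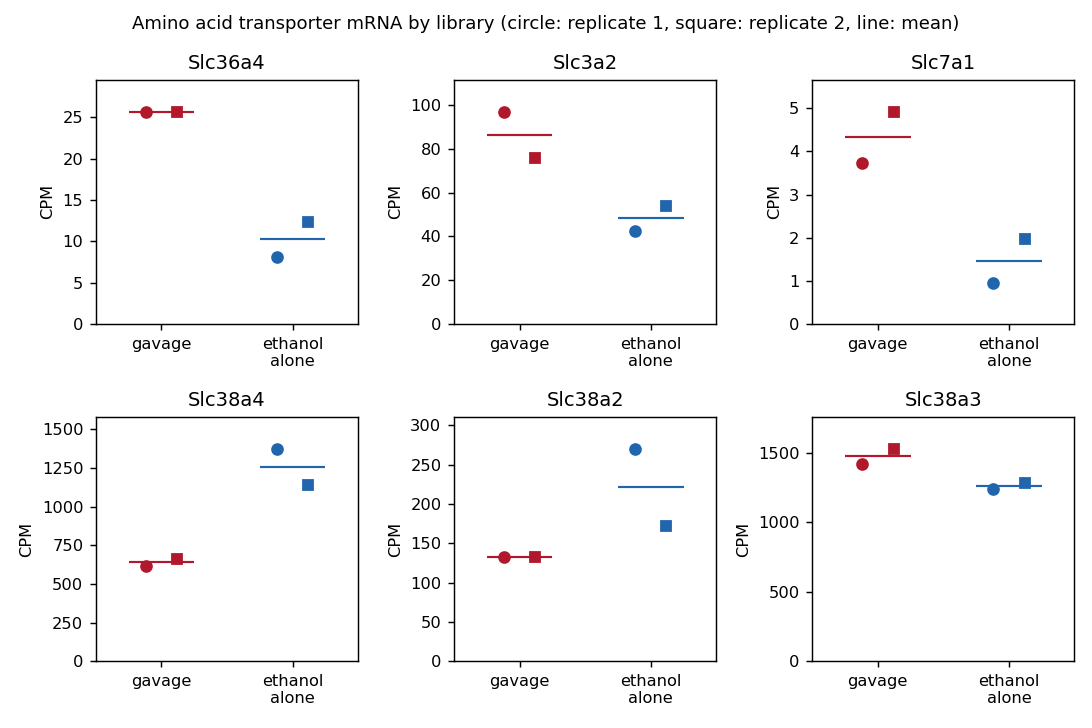
Level of 6 transporters in each library, in CPM from 0, with gavage on the left and ethanol alone on the right; circles are replicate 1, squares replicate 2 and lines group means. Slc36a4, Slc3a2, Slc7a1 and Slc38a3 stood higher in both gavage libraries and Slc38a4 and Slc38a2 stood lower, with no overlap between groups in any of the 6. Of these, 5 were chosen by their p. Groups did not overlap in 39.3% of the tested members and in 54.7% of all genes tested.

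The sodium-coupled neutral carriers of the Slc38a family made up most of the transporter messenger RNA. Slc38a3, a system N carrier for glutamine, histidine and asparagine, lies at chr9:107650634-107669530 on build GRCm38 and had a mean level of 259 RPKM over the 4 libraries. Slc38a4, a system A carrier for alanine and other small neutral amino acids, lies at chr15:96994820-97055956 and had a mean level of 222 RPKM. The next levels were 53.3 RPKM for Slc7a2, 39.2 RPKM for Slc3a1, 20.0 RPKM for Slc38a2, 19.1 RPKM for Slc3a2, 18.1 RPKM for Slc1a2 and 16.9 RPKM for Slc38a10. Slc38a3 and Slc38a4 together held 64.9% and 68.4% of the summed RPKM of the 41 transporters in the gavage libraries and 72.9% and 71.8% in the ethanol alone libraries.

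In RPKM, the order of these leading carriers differed between the groups. Slc38a4 had 615 and 663 CPM in the gavage libraries and 1372 and 1139 CPM in the ethanol alone libraries. Both gavage libraries were low and the groups did not overlap, with means of 639 ± 34 CPM after gavage and 1256 ± 165 CPM in ethanol alone (SD, n = 2 each). The log2 fold change was -0.97 with an SE of 0.24, a ratio of 0.509, and edgeR's quasi-likelihood test gave an unadjusted p of 0.00865 and an adjusted p of 0.167. With 1 library a group the log2 fold change was -1.16 among the libraries numbered 1 and -0.78 among those numbered 2. DESeq2 gave an adjusted p of 0.000159, the smallest it gave for any member.

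Slc38a3 had 1422 and 1527 CPM in the gavage libraries and 1237 and 1281 CPM in the ethanol alone libraries. Its groups did not overlap either, but the log2 fold change was only 0.23 with an SE of 0.22, and edgeR's unadjusted p was 0.356 and adjusted p 0.619. The ratio of Slc38a4 to Slc38a3 in RPKM was 0.536 and 0.538 in the gavage libraries and 1.37 and 1.1 in the ethanol alone libraries. Slc38a4 was therefore the more abundant of the pair per length in both ethanol alone libraries and the less abundant in both gavage libraries. In ethanol alone replicate 2 that order rested on the exon lengths used, 4261 bases for Slc38a4 and 5277 for Slc38a3. In CPM, Slc38a4 was the lower of the pair in that library, at 1139 against 1281 CPM. As shares of the transporter pool, Slc38a4 held 22.6% and 23.9% in the gavage libraries and 42.2% and 37.6% in the ethanol alone libraries, and Slc38a3 held 42.2% and 44.5% in the gavage libraries and 30.7% and 34.1% in the ethanol alone libraries.

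**Figure D2:**
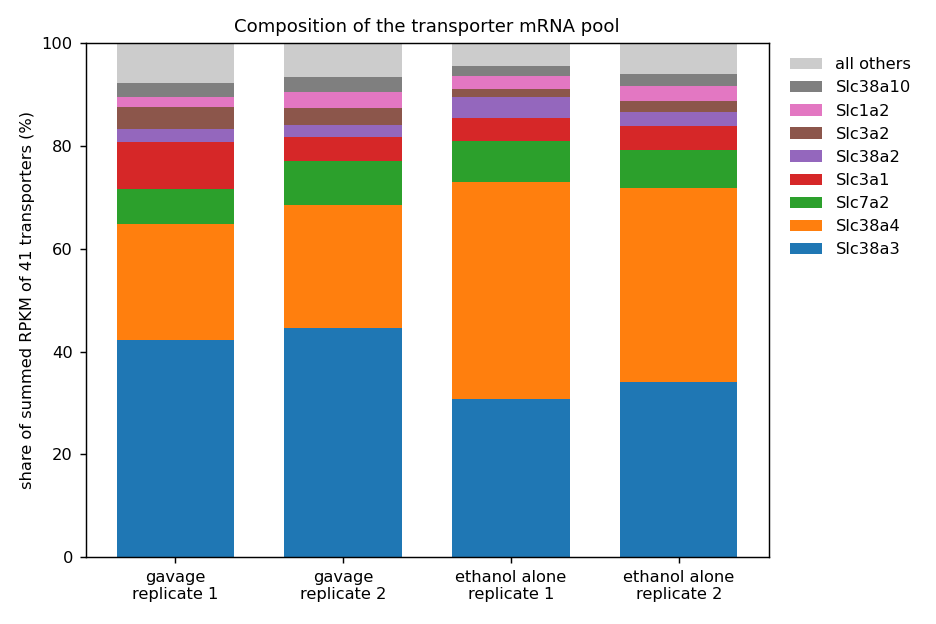
Share of the summed RPKM of 41 transporters held by each of the 8 most abundant and by all others, in percent, 1 bar per library, gavage on the left. The Slc38a4 segment is 22.6% and 23.9% in the gavage libraries and 42.2% and 37.6% in the ethanol alone libraries.

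Slc38a2, the ubiquitous system A carrier that cells are known to induce when amino acids are short, lies at chr15:96687392-96699730, on the same chromosome as Slc38a4 and Slc38a1. It had 133 and 132 CPM in the gavage libraries and 269.8 and 172 CPM in the ethanol alone libraries. The gavage libraries were close to each other and below both others, while the ethanol alone libraries differed. Its means were 133 ± 1.08 CPM after gavage and 221 ± 69.5 CPM in ethanol alone (SD, n = 2 each), the log2 fold change was -0.73 with an SE of 0.28, and edgeR's quasi-likelihood test gave an unadjusted p of 0.0452 and an adjusted p of 0.257. The higher of the ethanol alone libraries is the one with pancreatic acinar markers at 832 CPM; without it the log2 fold change was -0.40 with an unadjusted p of 0.0945, and the part of pancreatic RNA in this difference was not tested.

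Slc38a1, the third system A carrier, had only 5.1 and 2.99 CPM in the gavage libraries and 2.38 and 3.01 CPM in the ethanol alone libraries, which overlapped. The summed level of Slc38a1, Slc38a2 and Slc38a4 was 159.8 and 171 RPKM in the gavage libraries and 353 and 287 RPKM in the ethanol alone libraries, most of it from Slc38a4. The remaining tested members of the family varied little. Slc38a10, known in mouse for carrying glutamine, glutamate and aspartate, had a log2 fold change of 0.14. Slc38a7, a lysosomal glutamine carrier, stood at -0.22, and Slc38a6, whose substrates are poorly known, at -0.06. Slc38a9, the lysosomal arginine sensor that signals to the growth kinase mTORC1, had 13.2 and 14.5 CPM in the gavage libraries and 13.5 and 12.7 CPM in the ethanol alone libraries, a log2 fold change of 0.08 with an SE of 0.18.

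In the Slc36a family, Slc36a4 had the smallest p of all members. It carries proline and tryptophan with high affinity, is found on intracellular membranes, and lies at chr9:15709738-15743361. Slc36a4 had 25.7 and 25.6 CPM in the gavage libraries and 8.13 and 12.4 CPM in the ethanol alone libraries. Both gavage libraries lay above both ethanol alone libraries, and the means were 25.6 ± 0.064 CPM after gavage and 10.2 ± 2.99 CPM in ethanol alone (SD, n = 2 each). The log2 fold change was 1.32 with an SE of 0.25, a 2.5-fold difference, with an unadjusted p of 0.0026 and an adjusted p of 0.134 in edgeR's quasi-likelihood test. The log2 fold change was 1.66 among the libraries numbered 1 and 1.05 among those numbered 2, and DESeq2 gave an adjusted p of 0.000825.

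Slc36a1, the lysosomal proton-coupled exporter of small neutral amino acids and the most abundant gene of the family by mean CPM, had 33.1 and 42.2 CPM in the gavage libraries and 27.9 and 54.9 CPM in the ethanol alone libraries. The ethanol alone values enclosed the gavage values, and the log2 fold change was -0.14 with an SE of 0.35. Slc36a2, a carrier of glycine and proline known in mouse as a surface marker of brown adipocytes, had 2.13 and 0 CPM in the gavage libraries and 0.732 and 0 CPM in the ethanol alone libraries. It was therefore detected in the libraries numbered 1, where adipocyte and muscle markers were also high, and not in the libraries numbered 2. No count of Slc36a3 was found in any of the 4 libraries, where a floor of 3 counts is 0.0955 to 0.11 CPM.

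**Figure D3:**
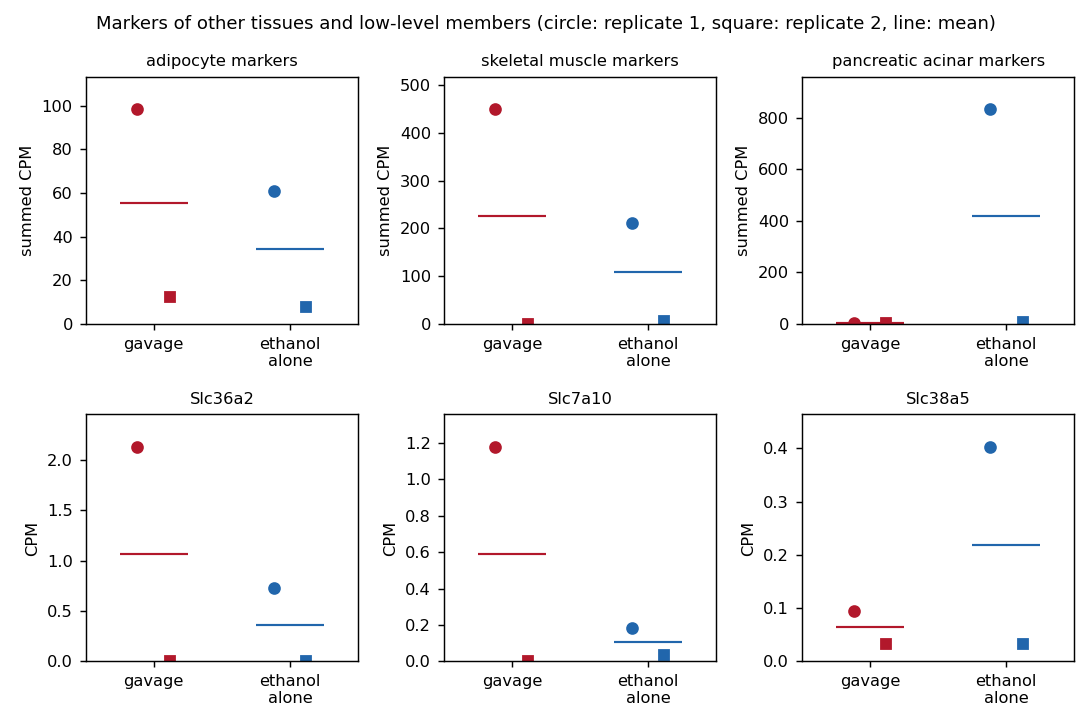
Summed CPM of adipocyte, skeletal muscle and pancreatic acinar markers (upper row) and CPM of Slc36a2, Slc7a10 and Slc38a5 (lower row) per library, gavage on the left; circles are replicate 1, squares replicate 2 and lines group means. Slc36a2 and Slc7a10 were highest in the 2 libraries with adipocyte and muscle markers, and Slc38a5 in the ethanol alone library with pancreatic markers.

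Of the heavy chains, Slc3a2 stood out in its values. Slc3a2 encodes CD98, which brings exchangers of the Slc7a family to the plasma membrane. Among the members these are Slc7a5, Slc7a6, Slc7a7, Slc7a8 and Slc7a10. Slc3a2 lies at chr19:8706882-8723369, with the RefSeq start shown above inside that interval. It had 97 and 75.7 CPM in the gavage libraries and 42.7 and 53.8 CPM in the ethanol alone libraries. The groups did not overlap, and the means were 86.4 ± 15.1 CPM after gavage and 48.3 ± 7.87 CPM in ethanol alone (SD, n = 2 each). Its log2 fold change was 0.84 with an SE of 0.23, a 1.79-fold difference, with an unadjusted p of 0.0128 and an adjusted p of 0.187 in edgeR's quasi-likelihood test. Among the libraries numbered 1 it was 1.18 and among those numbered 2 it was 0.49; DESeq2 gave an adjusted p of 0.0194.

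The light chains of Slc3a2 among the members showed no such pattern. Slc7a5, the large neutral amino acid exchanger LAT1, had 5.29 and 4.09 CPM in the gavage libraries and 4.58 and 5.45 CPM in the ethanol alone libraries, a log2 fold change of -0.10 with an SE of 0.26. Slc7a8, the related exchanger LAT2, had a log2 fold change of -0.20, and Slc7a7 and Slc7a6, which export cationic amino acids in exchange for neutral ones, had 0.16 and 0.58. In all 4 of these tested light chains edgeR's unadjusted p was above 0.05, and only Slc7a7 had groups that did not overlap, at 5.76 and 5.68 CPM in the gavage libraries and 5.45 and 4.82 CPM in the ethanol alone libraries. The summed level of these 5 light chains was 5.76 and 4.28 RPKM in the gavage libraries and 4.67 and 4.97 RPKM in the ethanol alone libraries. Partners of Slc3a2 outside the members are not in that sum. The ratio of Slc3a2 to that sum was 4.77 and 5.02 in the gavage libraries and 2.59 and 3.07 in the ethanol alone libraries, higher in both gavage libraries. Slc7a7 shares 232 exon bases with Oxa1l on the opposite strand, and with the strand setting unknown here, reads of such pairs may have been joined or lost.

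Slc3a1, the other heavy chain, known in kidney and intestine as the partner of Slc7a9 in cystine uptake, had 134 and 69.6 CPM in the gavage libraries and 78.8 and 73.9 CPM in the ethanol alone libraries. The first gavage library was high and the second lay below both ethanol alone libraries. Its log2 fold change was 0.42 with an SE of 0.34 and an unadjusted p of 0.275, and without the first gavage library it was -0.13. Its partner Slc7a9 had 2 and 2 counts in the gavage libraries and 2 and 0 in the ethanol alone libraries, and Slc7a13, its partner in kidney, had 0 in all 4. Slc3a1 shares 601 exon bases with Prepl on the opposite strand.

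Of the cationic amino acid carriers, Slc7a2 was the abundant liver form and Slc7a1 the minor one. Slc7a2, which takes up arginine, lysine and ornithine into hepatocytes, had 393 and 509 CPM in the gavage libraries and 557 and 488 CPM in the ethanol alone libraries, which overlapped, with a log2 fold change of -0.21 and an SE of 0.25. Slc7a1, the high-affinity carrier for the same amino acids that is low in adult liver, lies at chr5:148327410-148399904 and had 3.73 and 4.92 CPM in the gavage libraries and 0.952 and 1.98 CPM in the ethanol alone libraries. These values came from 117 and 148 counts in the gavage libraries and 26 and 60 counts in the ethanol alone libraries.

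The Slc7a1 groups did not overlap, with means of 4.32 ± 0.842 CPM after gavage and 1.47 ± 0.729 CPM in ethanol alone (SD, n = 2 each). The log2 fold change was 1.55 with an SE of 0.44, a 2.93-fold difference, and edgeR's quasi-likelihood test gave an unadjusted p of 0.0161 and an adjusted p of 0.197. It was 1.97 among the libraries numbered 1 and 1.31 among those numbered 2, and DESeq2 gave an adjusted p of 0.0504. Slc7a1 nevertheless remained a small fraction of Slc7a2: the ratio of their RPKM was 0.00751 and 0.00764 in the gavage libraries and 0.00135 and 0.00322 in the ethanol alone libraries. Slc7a4, a family member for which transport activity has not been established, had 0.796 and 0.764 CPM in the gavage libraries and 1.1 and 1.32 CPM in the ethanol alone libraries, with an unadjusted p of 0.189, and shares 554 exon bases with P2rx6 on the opposite strand.

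**Figure D4:**
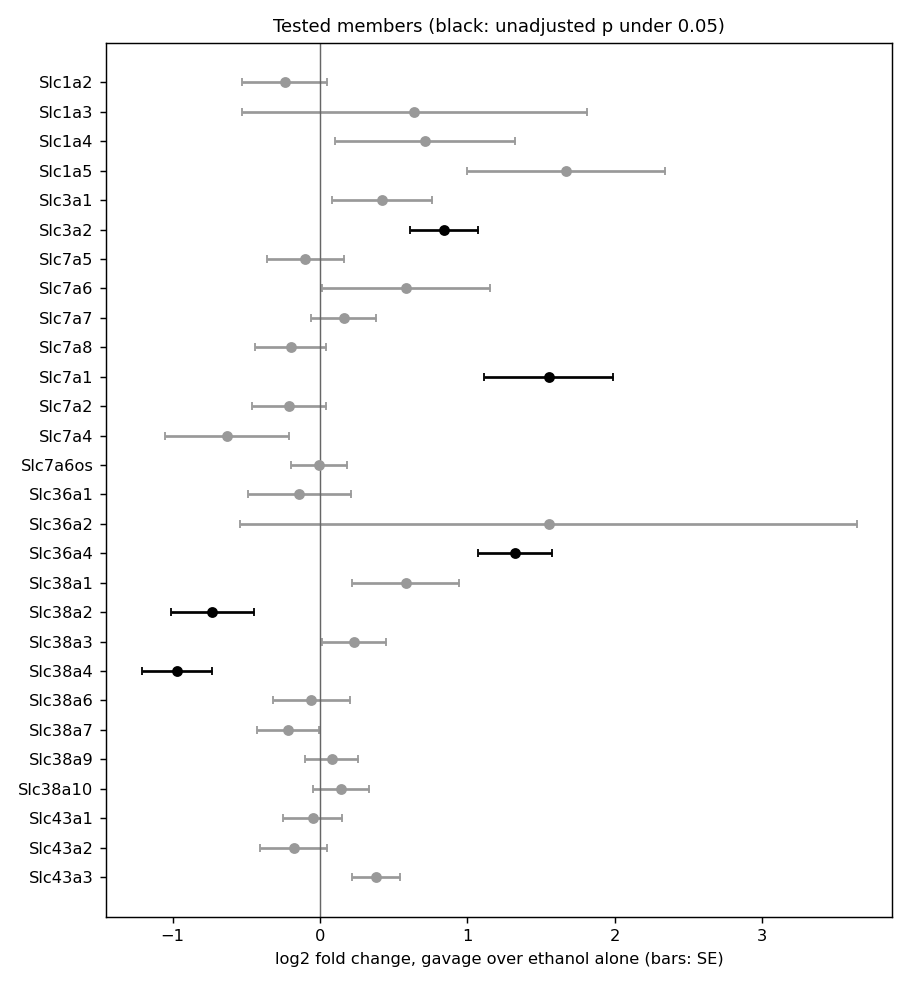
Log2 fold change of the 28 tested members, gavage over ethanol alone, grouped by role; bars are standard errors and black marks the 5 genes with an unadjusted p under 0.05 in edgeR's quasi-likelihood test. The point farthest right is Slc1a5 at 1.67, in grey, followed by Slc36a2, also grey and with the widest bar, and Slc7a1, both at 1.55, and Slc36a4 at 1.32; Slc38a4 at -0.97 and Slc38a2 at -0.73 are farthest left.

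The Slc1a family holds excitatory amino acid carriers and neutral exchangers. Slc1a2, the glutamate carrier that mouse liver uses in hepatocytes around the central vein, was the most abundant, with 169 and 267 CPM in the gavage libraries and 244 and 271 CPM in the ethanol alone libraries. The first gavage library was low and the second lay within the ethanol alone values, and the log2 fold change was -0.24 with an SE of 0.29. The 8 pericentral hepatocyte markers summed to 5090.4 and 5725 CPM in the gavage libraries and to 13039.6 and 9792 CPM in the ethanol alone libraries. Only 3 of the 8, Cyp2e1, Oat and Rgn, were lower in both gavage libraries, as were 27.2% of all genes tested. Cyp2e1 held most of that sum, with 2562 and 3413 CPM in the gavage libraries and 8877 and 6214 CPM in the ethanol alone libraries. Glul, the glutamine synthetase of these cells, had 1328 and 1108 CPM in the gavage libraries and 1276 and 1118 CPM in the ethanol alone libraries, which overlapped. The part of these markers in the values of Slc1a2 was not tested. Slc1a3, a glutamate carrier best known from glia, had 52 and 3 counts in the gavage libraries and 19 and 13 in the ethanol alone libraries, so the gavage libraries differed from each other more than the groups did.

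The neutral exchangers varied between libraries of the same group. Slc1a5, the glutamine exchanger ASCT2, had 23.3 and 7.74 CPM in the gavage libraries and 6.99 and 2.81 CPM in the ethanol alone libraries. It had the largest log2 fold change of the tested members, 1.67 with an SE of 0.67, and its groups did not overlap, but edgeR's unadjusted p was 0.0525 and adjusted p 0.269. Within both groups Slc1a5 was higher in the library numbered 1, 3.02-fold in the gavage group and 2.49-fold in the ethanol alone group, and those are the libraries with muscle and adipocyte markers; the part of other tissues in this was not tested. Within both numbers the gavage library stood above the ethanol alone library. Leaving out 1 library moved the log2 fold change between 0.66 (without gavage replicate 1, unadjusted p of 0.28) and 2.45 (without ethanol alone replicate 1, unadjusted p of 0.046). It was 1.10 without ethanol alone replicate 2 and 2.25 without gavage replicate 2. Slc1a4, the serine and alanine exchanger ASCT1, had 23.2 and 11.1 CPM in the gavage libraries and 5.24 and 15.8 CPM in the ethanol alone libraries, which overlapped, and its log2 fold change was 0.71 with an SE of 0.61. That value turned on single libraries: it was 0.08 without gavage replicate 1, 0.10 without ethanol alone replicate 1, 1.14 without gavage replicate 2 and 1.66 without ethanol alone replicate 2.

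In the Slc43a family, Slc43a3 was the most abundant. It is grouped with the amino acid carriers by sequence but is known as a carrier of purine bases. Slc43a3 had 49.8 and 47.1 CPM in the gavage libraries and 36 and 38.7 CPM in the ethanol alone libraries, with no overlap. Its log2 fold change was 0.38 with an SE of 0.16, and edgeR's unadjusted p was 0.0629 and adjusted p 0.285. Slc43a1 and Slc43a2, facilitators for branched-chain amino acids and phenylalanine, had log2 fold changes of -0.05 and -0.18 with SEs of 0.20 and 0.23. Slc7a6os stood at -0.01.

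Over the 28 tested members the log2 fold changes ran from -0.97 to 1.67, 15 positive and 13 negative, with a median of 0.11, against 0.02 over all genes tested. Their median size without sign was 0.31, against 0.34 over all genes. In 8 members both gavage libraries lay above both ethanol alone libraries and in 3 below, and the other 17 overlapped. Over all genes tested 27.5% lay above and 27.2% below in this way, so the members' total of 39.3% was under the 54.7% of all genes. A log2 fold change beyond 1 in either direction was seen in 4 members, 14.3%, against 9.84% of all genes, and 1 of the 4, Slc36a2, had no count in either library numbered 2.

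The 14 untested members were at or near 0 in these livers. Slc36a3, Slc7a12 and Slc7a13 had no count at all, and 12 of the 14 had under 15 counts over the 4 libraries. Slc7a10, an exchanger of small neutral amino acids known in mouse as a surface protein of white adipocytes, had the highest single value, 37 and 0 counts in the gavage libraries and 5 and 1 in the ethanol alone libraries. Slc7a10 was thus higher in both libraries numbered 1, as were the muscle markers and Adipoq, the adipocyte hormone. Adipoq had 8.92 and 0.0664 CPM in the gavage libraries and 5.53 and 0 CPM in the ethanol alone libraries. Slc7a10 shares 377 exon bases with Lrp3 on the opposite strand. Slc38a5, a system N carrier known in exocrine pancreas, had 3 and 1 counts in the gavage libraries and 11 and 1 in the ethanol alone libraries, its highest value in the library with the pancreatic enzyme Cpa1 at 142 CPM. The part of adipose and pancreatic RNA in these values was not tested.

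Slc7a15 was detected in both gavage libraries, with 8 and 4 counts, and in neither ethanol alone library. Its 12 counts over the gavage group, set against a floor of 3 counts over the ethanol alone group, gave a scaled ratio of 3.74. That ratio leaves out the counting error of the 12 and the spread between replicates, so it is no lower bound. Slc1a7 had 3 and 5 counts in the gavage libraries and 0 and 1 in the ethanol alone libraries. Slc1a6 had 4 and 0 in the gavage libraries and none in the ethanol alone libraries. The remaining untested members, Slc1a1, Slc38a8, Slc38a11, Slc7a3, Slc7a9 and Slc7a14, had between 0 and 3 counts in each library.

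Among the amino acid and peptide transporters of other families, 25 listed genes were in the count table and 12 of them could be tested. At an unadjusted p under 0.05 in edgeR's quasi-likelihood test, 3 were higher and 2 lower after gavage, 41.7% of the 12 against 18.8% of all genes. None was called after adjustment, and the median log2 fold change was -0.15. This list and those in the next paragraphs were chosen with earlier results of these data known. Their shares beside the background are therefore descriptions only. Slc6a9, the glycine carrier GLYT1, had 137 and 81.7 CPM in the gavage libraries and 29.4 and 28.7 CPM in the ethanol alone libraries, with an unadjusted p of 0.00111. The peptide carrier Slc15a2 had a log2 fold change of 1.73 and the lysosomal cationic amino acid exporter Pqlc2 one of 0.52. On the lower side were the lysosomal peptide carrier Slc15a4 at -0.79 and the betaine carrier Slc6a12 at -0.66. Slc6a13, which carries taurine and GABA and was the most abundant of the list, had 147 and 253 CPM in the gavage libraries and 247 and 303 CPM in the ethanol alone libraries.

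In the list of mTORC1 subunits and of genes for amino acid sensing upstream of it, 32 were in the count table and all 32 were tested. In edgeR's quasi-likelihood test 12 had an unadjusted p under 0.05 (6 higher, 6 lower), 37.5% against 18.8% of all genes. None was called after adjustment, and the median log2 fold change was 0.09. Of the 12, only the 6 with the smallest p are named here. The kinase Mtor itself had 99.2 and 87.7 CPM in the gavage libraries and 45.9 and 50.2 CPM in the ethanol alone libraries, a log2 fold change of 0.96 with an unadjusted p of 0.00287. Mios, a subunit of the GATOR2 complex, stood at 0.91, Itfg2, of the KICSTOR complex, at 0.89, and Seh1l, also of GATOR2, at 0.52. Lamtor2, part of the lysosomal Ragulator scaffold, stood at -0.65, and Sesn3, a sestrin, at -0.80.

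The GCN2 and ATF4 arm had 26 of 27 listed genes tested, of which 8 had an unadjusted p under 0.05 on the higher side and 1 on the lower side, 0 called after adjustment by edgeR's quasi-likelihood test, and a median log2 fold change of 0.39. The list's share at such a p was 34.6%, against 18.8% of all genes. The 8 on the higher side, by log2 fold change, were the serine synthesis enzyme Psat1 at 4.15, the stress-induced transcription factor Atf3 at 3.28, the folate enzyme Mthfd2 at 3.11, asparagine synthetase Asns at 2.96, the proline synthesis enzyme Aldh18a1 at 2.76, the transcription factor Cebpg at 0.76, the serine synthesis enzyme Psph at 0.75 and the initiation factor Eif2s1 at 0.42. The 1 on the lower side was Shmt2, the mitochondrial enzyme that joins serine and folate metabolism, at -0.54. Atf3 rested on 1 library, with 2.87 and 37.9 CPM in the gavage libraries and 1.21 and 2.97 CPM in the ethanol alone libraries, which overlapped. Atf4 itself had 92.1 and 109.6 CPM in the gavage libraries and 102 and 102 CPM in the ethanol alone libraries, which overlapped. Asns had 12.8 and 8.67 CPM in the gavage libraries and 2.34 and 0.429 CPM in the ethanol alone libraries. Some carriers are textbook ATF4 targets in cultured cells. Of those among the members, Slc3a2, Slc7a1 and Slc1a5 were higher in both gavage libraries, Slc38a2 was lower in both, and Slc7a5 and Slc1a4 overlapped. Over all genes tested, 27.5% were higher in both gavage libraries and 27.2% lower. These carriers were not a list set beforehand, and the part of ATF4 in their values was not tested.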

How the data were processed

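Messenger RNA was measured in 4 bulk liver libraries, put in groups by title, since 1 treatment text serves every sample. The deposited values are raw whole-number counts per gene symbol. Per the submitters' processing notes, the tools were STAR 2.6.0a, HTSeq, edgeR and bcl2fastq 2.20.0.422, with build GRCm38 and no roles named. Annotation, strand setting and handling of multi-mapping reads: not given in the sources used here. Trizol extraction and both a TruSeq and a KAPA kit are named per the labels.

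Genes were kept by filterByExpr (minimum count 10, total 15), which left 13309, scaled by TMM (factors 0.951 to 1.05) and tested with edgeR 4.0.16 in R 4.3.3 by the quasi-likelihood F-test, two-sided, with Benjamini-Hochberg adjustment at 0.05. SEs are the absolute log2 fold change over the square root of F. The common dispersion of 0.0966 corresponds to a coefficient of variation of 0.311. Exon lengths for RPKM came from GENCODE M21 on GRCm38, with 98.3% of tested genes matched. A length joins all annotated exons of a gene, whether or not liver uses them. Promoters came from the RefSeq table, with windows for 31 of the 42 members. Replicates of a group differed far beyond counting noise (chi-square per degree of freedom of 157 in the gavage group and 147 in ethanol alone). Floors of 3 counts cover counting error only. Alternatives used DESeq2 1.42.0, limma 3.58.1, other scalings and filters, a replicate block and left-out libraries. The fit was checked on simulated data. The members and gene lists were chosen with earlier results of these data known. Genes described by library are those with an unadjusted p under 0.05 and the most abundant of each family; others given by library, such as Slc1a5 and the low-count members, were chosen after their values were seen.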

Additional observations from a re-analysis of the deposited data

How the results depend on the processing

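With 2 libraries a group, the number of calls depended on the test. The 0 genes called by edgeR's quasi-likelihood test became 1177 with DESeq2 and 549 with edgeR's likelihood-ratio test, and ranged from 0 to 31 when 1 library was left out (31 without gavage replicate 2, 12 without ethanol alone replicate 2). Among the members, DESeq2 called 3 (Slc36a4, Slc3a2 and Slc38a4) and the likelihood-ratio test 1 (Slc36a4), and leaving out any 1 library called 0. Members at an unadjusted p under 0.05 numbered 5, ranging from 3 to 6 with a library left out; the 3 were Slc36a4, Slc38a4 and Slc7a1, without gavage replicate 1. With the replicate block 410 genes were called, 238 higher and 172 lower, and 2 members, Slc1a5 (log2 fold change 1.61, edgeR adjusted p 0.0238) and Slc36a4 (1.35, adjusted p 0.0364). Deviations of same-numbered libraries correlated with r of 0.587 over 13309 genes, but 2 pairs are too few to show that the numbers pair the samples. Other scalings, filters and limma-voom called 0 genes. The 5 members at an unadjusted p under 0.05 kept their direction under all 13 alternatives. Slc36a4 ran between 1.03 and 1.6, Slc7a1 between 1.09 and 2.12 and Slc3a2 between 0.65 and 1.0. Slc38a4 ran between -1.16 and -0.86 and Slc38a2 between -1.08 and -0.4. Direction also held with 1 library of each group left out, a setting chosen after seeing the data. These 5 were picked by p from the same counts, and their groups did not overlap. Leaving out libraries could therefore hardly reverse them, and the kept direction is no further support.

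Of 372 member values under alternatives, 346 kept direction and call, 6 became called and 20, in 12 members, changed sign. With library totals only, the log2 fold change became 0.02 for Slc38a6, 0.02 for Slc43a1 and 0.06 for Slc7a6os, and with limma-voom it became -0.32 for Slc1a3. Left-out libraries gave Slc1a2 -0.62 to 0.05, Slc1a3 -2.44 to 1.55, Slc36a1 -0.57 to 0.38, Slc36a2 -6.42 to 8.04, Slc38a6 -0.34 to 0.18, Slc38a9 -0.02 to 0.15, Slc3a1 -0.13 to 0.81, Slc43a1 -0.19 to 0.07, Slc43a2 -0.43 to 0.04, Slc7a5 -0.29 to 0.07, Slc7a6 -0.16 to 1.06 and Slc7a6os -0.22 to 0.14; the lone library left in a group is assumed to vary like the other group. The causes were not tested.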

Other observations

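Markers of other liver cells, which also express amino acid carriers, differed between the libraries. The 7 Kupffer cell markers summed to 273 and 299 CPM in the gavage libraries and to 475 and 467 CPM in the ethanol alone libraries, lower in both gavage libraries for all 7. The 6 periportal hepatocyte markers summed to 3022 and 4752 CPM in the gavage libraries and to 7384 and 6446 CPM in the ethanol alone libraries, with 5 of the 6 lower in both gavage libraries. Neutrophil markers, 6 in all, summed to 16.7 and 6.05 CPM in the gavage libraries and to 4.69 and 4.13 CPM in the ethanol alone libraries, with 4 of the 6 higher in both gavage libraries. These levels were low and most of the difference lay in gavage replicate 1. S100a8 had 4.36 and 0.698 CPM in the gavage libraries and 0.659 and 0.463 CPM in the ethanol alone libraries. Ly6g and Mpo stayed under the floor of 3 counts in every library. The 7 endothelial markers summed to 379 and 423 CPM in the gavage libraries and to 433 and 464 CPM in the ethanol alone libraries, with 4 lower and 1 higher in both gavage libraries. The 7 stellate cell markers summed to 619 and 604 CPM in the gavage libraries and to 620.3 and 566 CPM in the ethanol alone libraries, with 2 lower in both gavage libraries. Des, 1 of the 7, was higher in both libraries numbered 1, as the muscle markers were. It had 85.5 and 5.88 CPM in the gavage libraries and 33.1 and 4.76 CPM in the ethanol alone libraries. Over all genes tested, 27.2% were lower in both gavage libraries and 27.5% higher, so the 2 of 7 stellate cell markers stood near that share. The part of all these markers in the transporter values was not tested.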
